A study of Mus musculus with 7 samples.

Results

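The genes described are 9 enzymes of cholesterol synthesis: Hmgcs1, Idi1, Fdps, Fdft1, Sqle, Lss, Cyp51, Ebp and Sc5d. They were chosen by gene symbol as steps of the pathway, with earlier results of these data known. All 9 had a row in the deposited table, which holds 13047 gene symbols. Coding footprints on 6 of the 9 enzymes were higher in epidermis carrying a Pelota knockout than in wild type, led by Idi1 at 2.34-fold, while Hmgcs1, Fdps and Lss did not pass the test.

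The series compared primary mouse epidermis of wild type (WT) with epidermis in which Pelota (Pelo), a factor that frees stalled ribosomes, was knocked out by a transgenic method (KO). Ribosome profiling, which sequences the stretches of mRNA covered by ribosomes, gave 2 KO and 2 WT libraries; RNA-seq libraries are also labelled but were not used here, so mRNA amount and ribosomes per mRNA cannot be told apart. The labels give no strain, age, Cre driver or deleted region, nor whether the replicates are different animals; the p-values therefore reflect the scatter among these 4 libraries, which may be technical. Ribosomal RNA was depleted with a RiboZero-Gold kit in every library.

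Cholesterol is built from acetyl-CoA. The early enzymes make isoprenoid units and join them into farnesyl diphosphate, which also feeds protein prenylation, dolichol and ubiquinone; squalene synthase then commits the carbon to sterols, and squalene is epoxidised, closed into lanosterol and trimmed to cholesterol. Transcription of most of these genes is driven by the factor encoded by Srebf2 when sterols in the endoplasmic reticulum are low. Keratinocytes make much of their own cholesterol, and together with ceramides and fatty acids it forms the lipid sheets of the skin barrier.

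The RefSeq promoter table (build GRCm38.p6, 250 bases before to 50 after the annotated start) had an entry for 6 of the enzymes; Fdps, Fdft1 and Sqle had none. The promoters of Hmgcs1, Idi1 and Cyp51 are shown because these enzymes had the highest footprint densities in KO, and because they differ in response. Capitals mark CCAAT on either strand (CCAAT or ATTGG), the letters bound by the factor NF-Y, and the sterol regulatory element searched as TCACNCCAC on both strands. The Hmgcs1 promoter lies at chr13:119690101-119690400 on the plus strand, that of Idi1 at chr13:8885356-8885655 on the plus strand, and that of Cyp51 at chr5:4104648-4104947 on the minus strand.
Hmgcs1: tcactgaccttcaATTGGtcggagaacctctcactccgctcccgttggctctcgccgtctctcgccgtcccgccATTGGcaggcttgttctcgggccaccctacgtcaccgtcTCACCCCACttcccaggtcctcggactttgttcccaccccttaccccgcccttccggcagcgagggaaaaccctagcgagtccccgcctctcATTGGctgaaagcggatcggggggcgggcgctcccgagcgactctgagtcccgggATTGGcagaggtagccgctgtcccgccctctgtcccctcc
Idi1: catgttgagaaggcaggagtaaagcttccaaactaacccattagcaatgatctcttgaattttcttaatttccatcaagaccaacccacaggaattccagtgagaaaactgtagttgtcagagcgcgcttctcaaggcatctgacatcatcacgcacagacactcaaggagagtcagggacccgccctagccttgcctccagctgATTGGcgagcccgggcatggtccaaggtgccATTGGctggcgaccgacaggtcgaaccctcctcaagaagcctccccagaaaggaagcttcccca
Cyp51: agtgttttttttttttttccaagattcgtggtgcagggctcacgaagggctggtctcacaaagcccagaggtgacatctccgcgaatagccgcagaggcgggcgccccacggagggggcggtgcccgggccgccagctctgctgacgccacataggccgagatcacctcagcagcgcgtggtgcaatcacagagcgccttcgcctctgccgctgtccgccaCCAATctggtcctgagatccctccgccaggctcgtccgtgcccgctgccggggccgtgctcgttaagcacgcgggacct
All 6 promoters held CCAAT, against 37.4% of the 32851 mouse promoters in the table, with 4 matches in Hmgcs1, 2 each in Idi1 and Ebp, and 1 each in Cyp51, Lss and Sc5d. All 6 also held the GC box GGGCGG on one strand or the other, against 35.7% of promoters. The sterol regulatory element matched in the Hmgcs1 promoter alone of the 6, starting 137 bases before the start, and in 1.24% of all promoters; no match says only that these letters are not in this window. The matches to these motifs did not overlap each other. Footprints were counted on mm9 transcripts, so the counted transcript need not start at the RefSeq start used here.

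Total coding footprints ranged from 4221675 to 5282276 per library, and the median listed transcript had 90 to 112. Pelo, the targeted gene, had 24 and 21 footprints on its coding region in the KO libraries and 101 and 61 in the WT libraries (log2 change −1.65, SE 0.245, adjusted p = 0.000807), so both KO libraries were below both WT libraries. Across 10953 genes tested, 39.0% passed an adjusted p of 0.05 in either direction, 19.9% as higher and 19.1% as lower in KO. With library totals in place of TMM scaling the split was 1523 higher and 2986 lower. All 7 basal and all 10 suprabasal keratinocyte markers were in the table, but a row there cannot check the label epidermis. All 8 dermal fibroblast markers were there too, with a summed share of 3.85% and 4.39% in the KO libraries and 8.25% and 12.4% in WT. Basal keratinocyte markers held 2.43% and 2.22% in KO and 1.58% and 1.69% in WT, with 2 of 7 tested called higher and 2 lower. The summed share of suprabasal and cornified markers was 6.09% and 5.67% in KO, 2.05% and 1.82% in WT, with 8 of 9 tested called higher. The 5 hair and the 5 melanocyte markers tested were all called higher, while 5 of 8 markers of macrophages and Langerhans cells were called lower. Sebaceous gland markers held 0.0697% and 0.109% in KO against 0.325% and 0.319% in WT, with 10 of 13 tested called lower and Mc5r unlisted in both KO libraries. Adipocyte markers held 0.0736% and 0.0605% against 0.184% and 0.124%, with 6 of 7 tested called lower. In bulk libraries fewer cells of a type and less RNA per cell cannot be told apart, and the part these cell types have in the results on the enzymes was not tested.

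Together the 9 enzymes made up 0.233% and 0.223% of each KO library, and 0.197% and 0.162% of each WT library, as a share of footprints on coding regions. That is 0.228% ± 0.00707 in KO and 0.179% ± 0.0247 in WT (mean ± SD, n = 2 per genotype), and both KO libraries were above both WT libraries. The 13 other genes of the pathway, described below, held 0.147% and 0.152% in KO and 0.168% and 0.147% in WT. All 22 together held 0.38% and 0.374% in KO and 0.365% and 0.308% in WT. Of the 9 enzymes, 6 were called higher in KO and none lower, where 19.9% of all genes were called higher. The enzymes were chosen with earlier results known, so setting these shares side by side is no test of the list. By mean scaled coding footprints the 9 stood above 75.6% (Lss) to 98.3% (Hmgcs1) of the genes tested. A comparison with genes of like coverage was not made. Both KO libraries lay above both WT libraries for the same 6 enzymes, where this held for 35.4% of all genes. The median log2 change was 0.79 over the 9 enzymes and −0.02 over all genes tested, whose middle 50% ran from −0.42 to 0.38. Levels below are in CPM, coding counts scaled to each library's total and its TMM factor (the scaling that centres most genes).

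**Figure D1:**
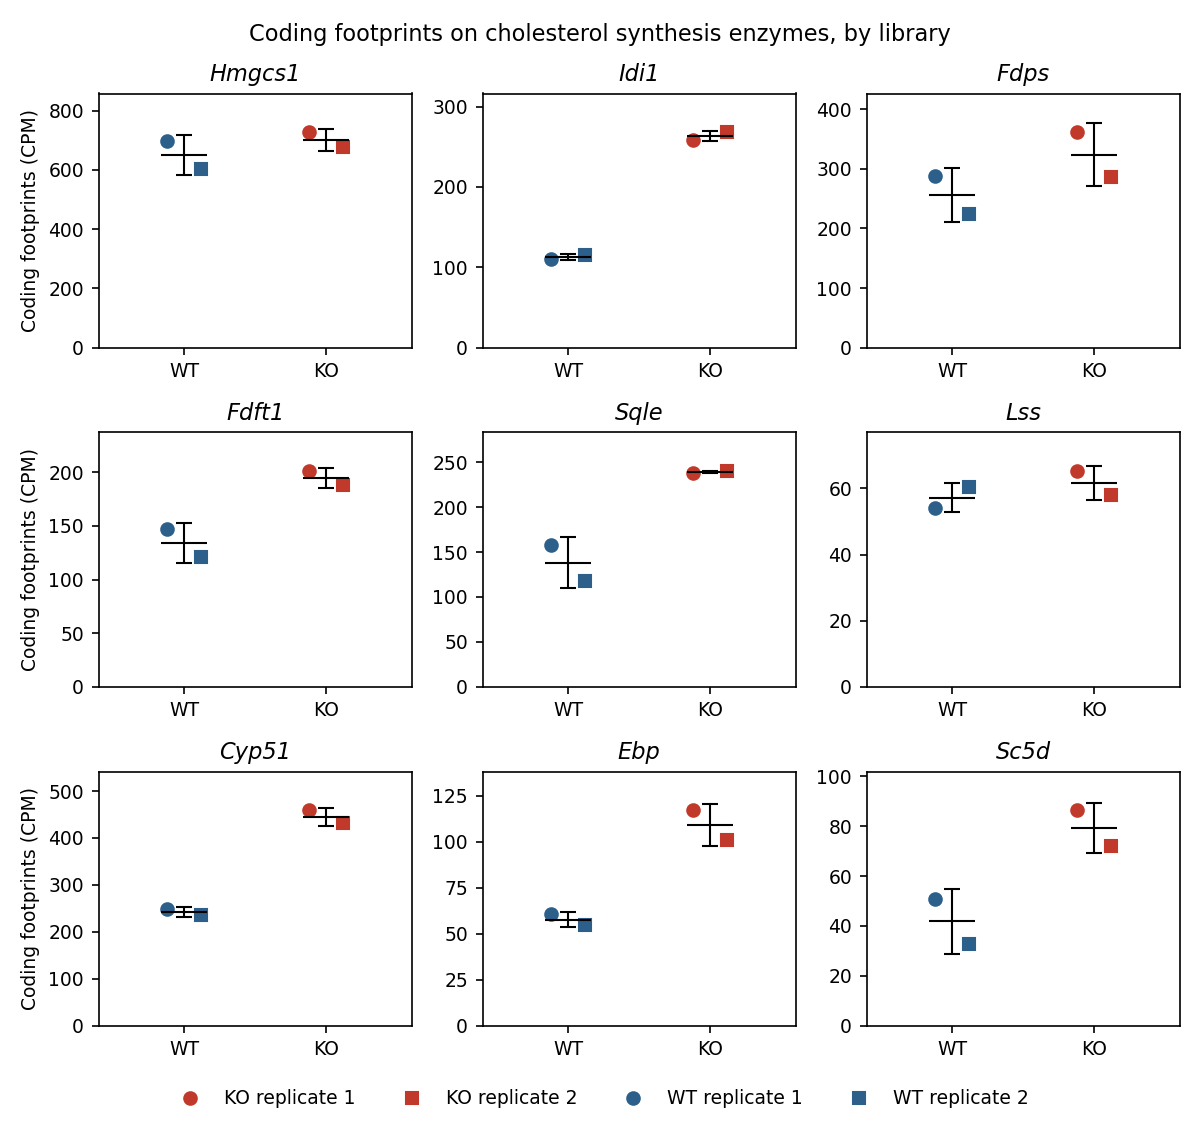
Coding footprints of each enzyme in CPM (vertical axis, from 0) in WT and KO; points are libraries, and the bar and whiskers are mean ± SD of n = 2. Idi1, Fdft1, Sqle, Cyp51, Ebp and Sc5d have both KO libraries above both WT libraries, while Hmgcs1, Fdps and Lss overlap.

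Of the 4 enzymes that lead up to squalene, 2 rose. Hmgcs1, the cytosolic synthase that makes HMG-CoA, had 3325 and 2931 footprints in KO and 3998 and 2630 in WT, or 727 and 676 CPM against 697 and 602. The groups overlapped, and the log2 change of 0.11 (SE 0.123, adjusted p = 0.509) did not pass. Idi1, the isomerase that turns isopentenyl diphosphate into its reactive partner dimethylallyl diphosphate, had 1183 and 1163 footprints in KO and 632 and 502 in WT. Scaled, these were 259 and 268 CPM against 110 and 115, so the genotypes were far apart and the replicates close together. Idi1 rose by 1.23 on the log2 scale (SE 0.112, adjusted p = 4.53e-05), with a range of 1.19 to 1.26 over the fits that omit 1 library.

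Fdps, the synthase of farnesyl diphosphate from which the sterol and prenylation branches part, had 1652 and 1240 footprints in KO and 1653 and 980 in WT. At 361 and 286 CPM against 288 and 224, KO replicate 2 lay just below WT replicate 1, and the log2 change of 0.34 (SE 0.157, adjusted p = 0.121) did not pass. It passed without KO replicate 2 (0.50, adjusted p = 0.023), without WT replicate 1 (0.52, adjusted p = 0.0428) and with the replicate number as a block (0.34, adjusted p = 0.0356); over all alternatives its adjusted p ran from 0.023 to 0.505. Fdft1, squalene synthase, had 918 and 814 footprints in KO and 840 and 527 in WT, or 201 and 188 CPM against 147 and 121. The genotypes did not overlap, and Fdft1 rose by 0.54 (SE 0.129, adjusted p = 0.00971), a call it lost without WT replicate 2 (0.41, adjusted p = 0.0609) and with library totals in place of TMM scaling (0.37, adjusted p = 0.061), the highest of its adjusted p-values, which went down to 0.00514.

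From squalene on, 4 of 5 enzymes rose and Lss was the exception. Sqle, the epoxidase regarded as a control point of the pathway, had 1090 and 1042 footprints in KO and 908 and 515 in WT, or 238 and 240 CPM against 158 and 118. The KO libraries were nearly equal and the WT libraries were spread, and Sqle rose by 0.79 (SE 0.147, adjusted p = 0.00272). Lss, which folds epoxidised squalene into lanosterol, had 298 and 251 footprints in KO and 310 and 264 in WT. Its levels of 65.2 and 57.9 CPM in KO and 54.1 and 60.4 in WT overlapped, with a log2 change of 0.11 (SE 0.131, adjusted p = 0.553). With library totals alone the log2 changes of both Hmgcs1 and Lss were −0.06.

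Cyp51, the demethylase that acts on lanosterol, had 2096 and 1876 footprints in KO and 1426 and 1025 in WT, or 459 and 432 CPM against 249 and 235. It rose by 0.88 (SE 0.111, adjusted p = 0.000311), with a gap between genotypes wider than that between replicates. Ebp, the isomerase that moves a double bond in the sterol ring, had 534 and 436 footprints in KO and 347 and 239 in WT, or 117 and 101 CPM against 60.5 and 54.7, and rose by 0.91 (SE 0.133, adjusted p = 0.000719). Sc5d, the desaturase that follows it, had 395 and 313 footprints in KO and 292 and 143 in WT. Its 86.4 and 72.2 CPM in KO stood above 50.9 and 32.7 in WT, and it rose by 0.91 (SE 0.196, adjusted p = 0.00587). Sc5d had the widest SE of the 9, with a range of 0.64 to 1.27 over the fits that omit 1 library.

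Levels between enzymes can be compared per length of coding region. In WT, footprint density was highest for Hmgcs1 at 432 ± 44.9 CPM per kb, followed by Fdps (213 ± 37.6), Cyp51 (166 ± 6.89), Idi1 (142 ± 4.15), Fdft1 (112 ± 15.4), Ebp (91.0 ± 6.51), Sqle (83.3 ± 17.3), Sc5d (49.8 ± 15.3) and Lss (26.7 ± 2.10; mean ± SD, n = 2). Only Ebp and Sqle, neighbours in that order, overlapped between their WT libraries. In KO, Hmgcs1 stayed highest at 467 ± 24.4 CPM per kb and Lss lowest at 28.7 ± 2.42, while Idi1 moved from rank 4 to rank 2 at 333 ± 8.29. Cyp51 followed at 307 ± 12.7 and Fdps, second in WT, was at rank 4 with 269 ± 44.4, though Cyp51 and Fdps overlapped in KO, as did Ebp (172 ± 18.2) and Fdft1 (163 ± 7.83).

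**Figure D2:**
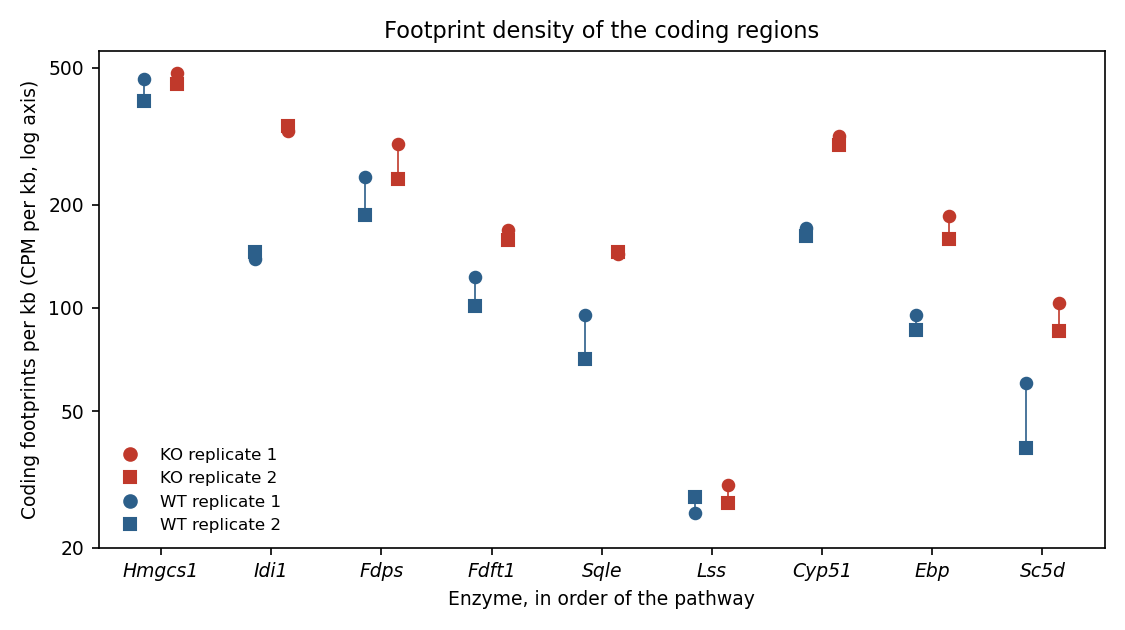
Footprint density of each coding region in CPM per kb (log axis), with enzymes in pathway order along the horizontal axis; points are libraries and lines join replicates. Hmgcs1 is highest and Lss lowest in both genotypes, and Idi1 goes from 142 in WT to 333 in KO.

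The balance between enzymes within a library needs no scaling between libraries. Relative to Hmgcs1 in the same library, Idi1 footprints were 35.6% and 39.7% in KO against 15.8% and 19.1% in WT. Cyp51 stood at 63.0% and 64.0% of Hmgcs1 in KO against 35.7% and 39.0% in WT, and Sqle at 32.8% and 35.6% against 22.7% and 19.6%. Ebp was at 16.1% and 14.9% against 8.68% and 9.09%. All of these were higher in both KO libraries. Fdft1 (27.6% and 27.8% against at most 21.0%), Sc5d (11.9% and 10.7% against 7.30% and 5.44%) and Fdps (49.7% and 42.3% against 41.3% and 37.3%) were so too, by less in the case of Fdps. Lss, at 8.96% and 8.56% in KO, lay above WT replicate 1 (7.75%) and below WT replicate 2. These ratios show unequal change and were not tested. Hmgcs1 and Lss had the smallest log2 changes of the 9 (0.11 each), so dividing by Hmgcs1 sets most other enzymes higher in KO. The ratios rest on the same coding counts as the levels above.

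**Figure D3:**
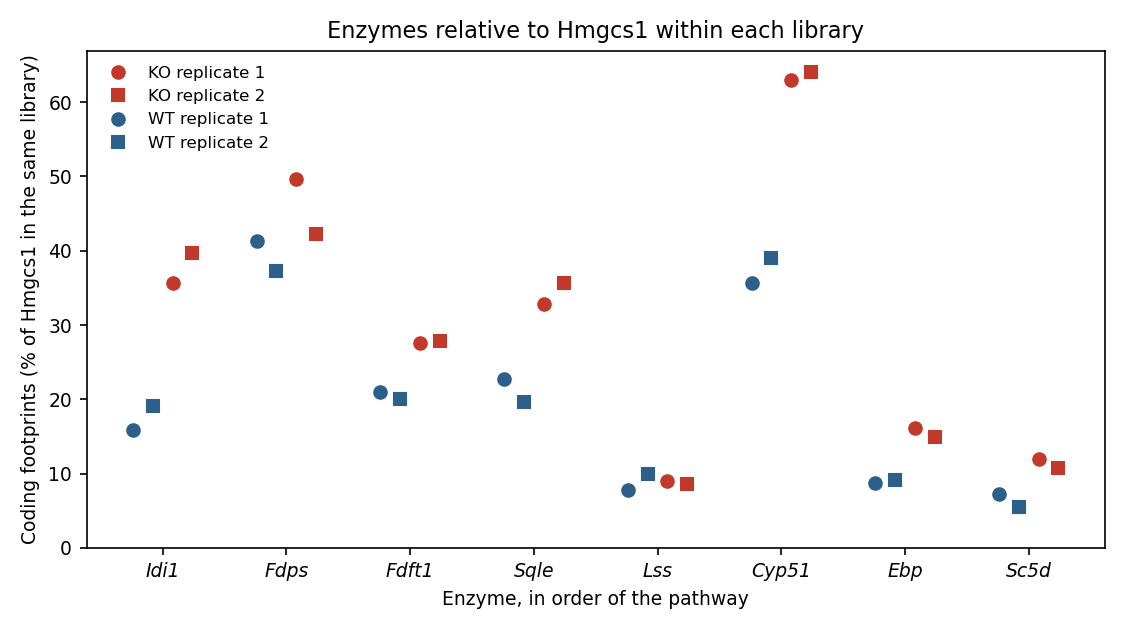
Coding footprints of 8 enzymes as a percentage of Hmgcs1 footprints in the same library (vertical axis, from 0); points are the 4 libraries. Relative to Hmgcs1, every enzyme except Lss is higher in both KO libraries. Cyp51 goes from 35.7% and 39.0% in WT to 63.0% and 64.0% in KO.

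The rest of the pathway was mixed. Of 13 other genes, all in the table, 12 were tested; 3 rose, 1 fell and 8 were not called, with a median log2 change of 0.20, and values are given for 10 of the 12. The share called was near that of all genes, 39.0%. The balance was not stable: 1 rose and 2 fell with library totals (median 0.03), 2 rose and none fell without KO replicate 1, 3 rose and none fell without WT replicate 1 or with unlisted counts at 0, and 1 rose and 1 fell without WT replicate 2. Hsd17b7, a ketoreductase of sterol demethylation, rose by 0.76 (SE 0.138, adjusted p = 0.00244), from 41.5 and 37.1 CPM in WT to 72.0 and 61.3 in KO. Lbr, a lamin B receptor with sterol reductase activity, rose by 0.39 (adjusted p = 0.04), a call lost with library totals (0.22), with DESeq2 (0.41), with unlisted counts at 0 (0.40), without KO replicate 1 (0.30) and without either WT library (0.48 and 0.31).

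The genes not called were the thiolase Acat2 (−0.11), the mevalonate kinases Mvk (0.28) and Pmvk (0.38), the decarboxylase Mvd (0.06), the sterol reductases Tm7sf2 (−0.75, adjusted p = 0.0512) and Dhcr7 (0.30), the oxidase Sc4mol (0.02) and the dehydrogenase Nsdhl (0.13). Without 1 library Mvk and Dhcr7 (KO replicate 2, 0.61 and 0.47) and Pmvk (WT replicate 1, 0.72) passed, as Tm7sf2 did with library totals (−0.92).

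Idi2, a second isopentenyl diphosphate isomerase gene, was listed in KO alone. Its coding region of 624 nt had 44 and 60 footprints in the KO libraries and no listed value in WT, where an unlisted count can reach 6. Idi2 was not tested, since it has values only where it passed the listing limit. If that limit holds, its lowest KO level was 9.63 CPM against at most 1.37 in WT, a bound of 7.01-fold. The sources used here do not give how reads matching both Idi2 and its relative Idi1 were counted.

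**Figure D4:**
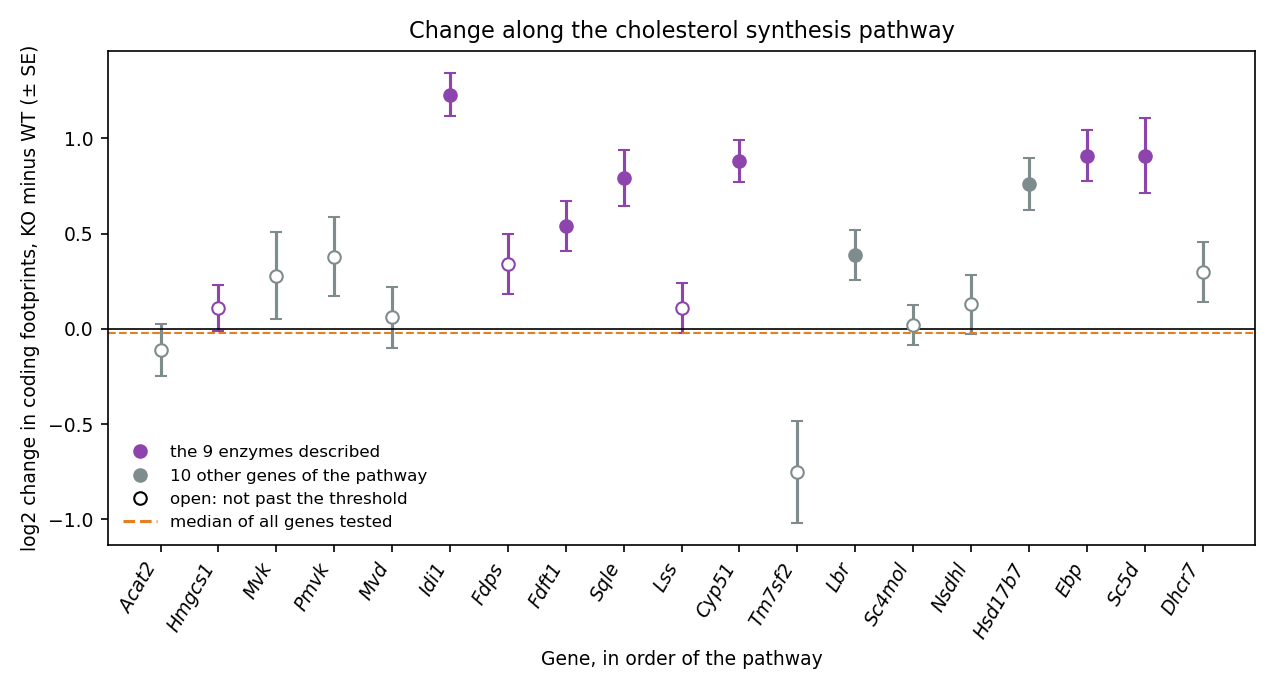
The log2 change in coding footprints, KO minus WT, with its SE (vertical axis) for the 9 enzymes and 10 other genes in pathway order; filled points passed the threshold and the dashed line is the median of all genes tested. Idi1 is highest at 1.23, Hmgcs1 and Lss lie at 0.11, and Tm7sf2 is lowest at −0.75 without passing.

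Genes that sense, move and store cholesterol did not share 1 direction. Among 15 tested genes of sterol sensing none rose and 4 fell, with a median of −0.12, where 19.1% of all genes fell; without KO replicate 1, 1 rose and 3 fell. Those with the largest changes were the protease Mbtps1 that makes the first cut in SREBP activation (−0.92, adjusted p = 0.000855), the ubiquitin ligase Mylip (−0.72, adjusted p = 0.00515) and the fatty acid gene activator Srebf1 (−0.51, adjusted p = 0.0156). Srebf1 lost its call without KO replicate 2 (−0.40) and without WT replicate 1 (−0.37). Srebf2 had 269 and 227 CPM in KO against 234 and 193 in WT and did not pass (0.22, adjusted p = 0.245). Insig1, which holds SREBPs in the endoplasmic reticulum when sterols are ample, had 19.3 and 19.1 CPM against 19.7 and 19.7 (−0.04, adjusted p = 0.88).

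Of 23 tested genes of uptake, transport, storage and export, 6 rose and 8 fell (median −0.09), where 19.9% of all genes rose and 19.1% fell. These counts were 5 and 9 under library totals, and 5 and 4 with unlisted counts at 0. The largest changes were rises of Cyp7b1, an oxysterol hydroxylase (2.39, adjusted p = 4.27e-05), Sult2b1, which makes the cholesterol sulfate of the cornified layer (1.88, adjusted p = 2.08e-05), and the sterol carrier Gramd1c (1.12, adjusted p = 0.0233), which missed the threshold without KO replicate 1 (0.80), without WT replicate 2 (0.76) and with unlisted counts at 0 (1.14). Sult2b1 had 218 and 208 CPM in KO against 65.6 and 50.1 in WT. Suprabasal and cornified markers were higher in share in the same KO libraries, and their part in the Sult2b1 values was not tested. The sterol carrier Stard4 rose by 0.88 (adjusted p = 0.00155), with 38.5 and 42.9 CPM against 21.5 and 22.9. The exporter Abca1 fell by 0.71 (adjusted p = 0.00184), with 200 and 235 CPM against 344 and 369. Srebf2, Insig1, Stard4 and Abca1, and Elovl7 below, were named after their values were seen.

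The other isoprenoid branches, which share farnesyl diphosphate with the sterol branch, had 1 called gene of 14, where 39.0% of all genes were called. The called gene was the prenyltransferase subunit Rabggtb (0.72, adjusted p = 0.00627). SEs here ran from 0.129 (Fnta) to 0.288 (Pdss2), against 0.111 (Cyp51) to 0.196 (Sc5d) for the 9 enzymes. A change of like size was thus harder to call for many of these genes. The median of these branches was 0.09, and with library totals 1 rose and 2 fell. Fatty acid synthesis genes had 1 rise and 9 falls among 17 tested, where 19.9% of all genes rose and 19.1% fell. Their median was −0.55, and with library totals 12 fell. The largest called changes were in the elongase Elovl5 (−2.33, adjusted p = 1.62e-05), the lipogenic factor Thrsp (−1.98, adjusted p = 0.000663) and the desaturase Scd1 (−1.93, adjusted p = 0.000112), and the gene that rose was the elongase Elovl7 (1.38, adjusted p = 2.95e-05). Sebaceous gland and adipocyte markers, given above, also held smaller shares in KO. The sebaceous markers include Fads2 of the fatty acid list and Soat1 of the list of uptake, transport, storage and export. The part of these cell types in the fatty acid values was not tested.

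Most footprints ahead of a coding region were on Sqle. Its 5′ UTR of 747 nt held 120 and 152 footprints in KO, 55 and 31 in WT, which is 358 of the 567 5′ UTR footprints on all 9 enzymes. Relative to its own coding footprints these were 11.0% and 14.6% in KO and 6.06% and 6.02% in WT, so the genotypes did not overlap. Summed over the table, this percentage was 1.45% and 1.69% in KO and 1.09% and 0.996% in WT. Relative to the typical gene, the ratio for Sqle changed by 0.36 (log2, SE 0.226, adjusted p = 0.418) and did not pass, where 1.67% of 1618 genes did (27 genes, none with the replicate number as a block). Summed over libraries, the density of footprints in its 5′ UTR was 0.224 of that in its coding region, above 74.2% of 9939 genes with at least 100 coding footprints; the median gene had 0.0863.

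The other enzymes had few footprints there. Cyp51 had 25 and 24 in KO and 21 and 13 in WT, or 1.19% and 1.28% of its coding footprints against 1.47% and 1.27%. Ebp had 24 and 18 against 11 and 5, or 4.49% and 4.13% against 3.17% and 2.09%. Relative to the typical gene, the ratio changed by −0.88 for Cyp51 (SE 0.332, adjusted p = 0.194) and by −0.03 for Ebp (SE 0.449, adjusted p = 0.983). Neither passed the test of its ratio to coding footprints. Sc5d had 8 and 14 against 2 and 0, Hmgcs1 4 and 10 against 2 and 9, and Lss none in any library. Idi1, Fdps and Fdft1 had 0 to 4 per library. In the 3′ UTR, where ribosomes that were not released may be found, the 9 enzymes had 55 footprints in all over the 4 libraries, and Fdps, Lss and Ebp had 0. None of the 9 had enough for the test of the 3′ UTR to coding ratio, in which 25.6% of 223 genes passed; that share rests on 57 calls, which went to 15 with library totals, 5 to 35 with 1 library left out and 0 with the replicate number as a block.

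**Figure D5:**
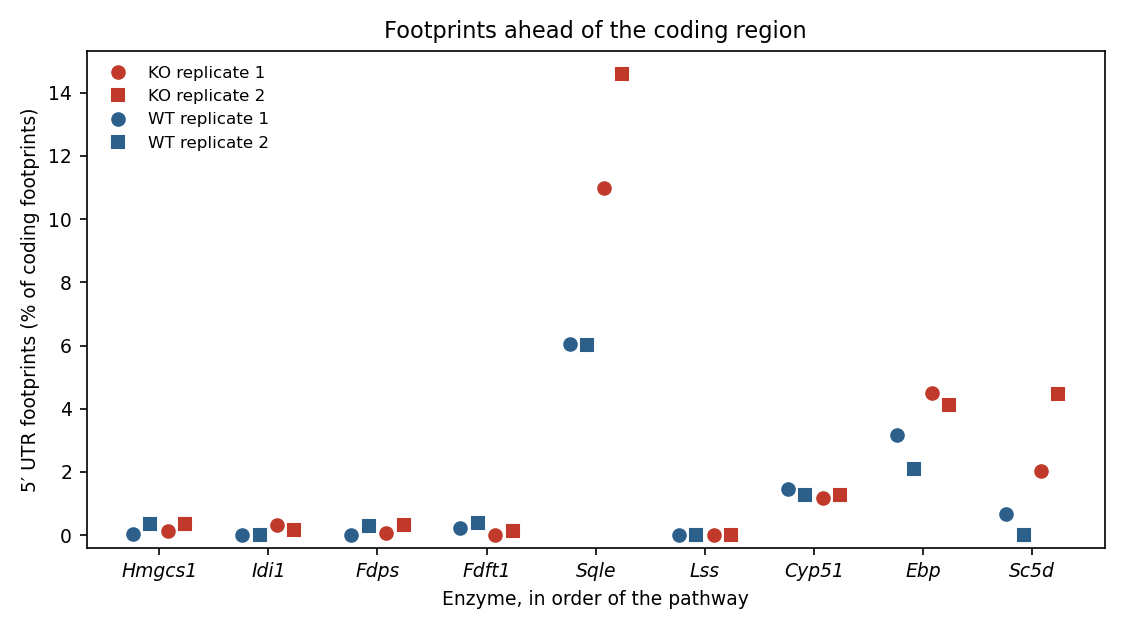
Footprints in the 5′ UTR as a percentage of coding footprints (vertical axis) for each enzyme in pathway order; points are the 4 libraries. Sqle is highest in every library, at 11.0% and 14.6% in KO and 6.06% and 6.02% in WT.

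The genes outside these lists whose pattern over the 4 libraries was nearest to the mean of the 9 enzymes included Rab11a, Psmd11, Cox6a1 and Sh3bgrl3, which were among the nearest 5 and had log2 changes of 0.64, 0.67, 0.64 and 0.62. Their distances, on log2 CPM centred on each gene's mean, were 0.0192, 0.043, 0.056 and 0.0649. Fdft1 was the nearest of the 9 enzymes at 0.12 and Idi1 the farthest at 0.619, and 35 of 2587 candidate genes were nearer than Fdft1.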

How the data were processed

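Ribosome footprints were compared in 2 KO and 2 WT libraries, grouped by title. The authors deposited raw counts of footprints per transcript region; region lengths in nt and mm9 annotation are given per the file headers. CASAVA 1.8, Bowtie2 2.2.6 and TopHat2 2.0.10 are named, without a role, per the submitters' processing notes; no source used here gives the counting rule. The table described as full-length footprints (28 to 34 nt) and that described as short ones (20 to 22 nt) are identical, so the length class is unknown. Counts are listed only above a coding density of 0.01 footprints per nt, found from the values.

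Of 13167 transcripts, 11019 were listed in all 4 libraries and 10953 had at least 10 counts in at least 2. Coding counts were tested with edgeR 4.0.16 in R 4.3.3 (quasi-likelihood, TMM, genotype as the term), with Benjamini-Hochberg adjustment over all genes and a threshold of 0.05. The SE is the log2 change divided by the square root of F. For UTR to coding ratios, the edgeR test was on a genotype-by-region term beside library and region, with TMM factors per region. The tests were also run on simulated counts in which a small part of the genes changed and the spread between libraries was set in advance. In the data 39.0% of genes were called, so that run does not check the scaling or the stability of the UTR calls. DESeq2 1.42.0, other scalings, filters, a replicate block and each library left out were tried.

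The members, lists and alternatives were chosen with earlier results of these data known. Named were Pelo, all pathway genes, up to 3 called genes of each other list with the largest change, and the 5 nearest patterns; some of these are not reported here.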

Additional observations from a re-analysis of the deposited data

How the results depend on the processing

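Over 10 alternatives the number of the 9 enzymes called higher was 5 to 7 and none was called lower; it was 5 to 7 with 1 library left out, 5 with library totals alone and 7 with the replicate block, which added Fdps (0.34, adjusted p = 0.0356). Deviations of same-numbered KO and WT libraries were not correlated over all genes (r = −0.006 over 10953 genes). A correlation over all genes cannot show whether a part of the genes shares a batch, which was not tested. Of all genes, 4277 were called (2184 higher, 2093 lower), against 2669 with DESeq2, 4337 with the replicate block, 1523 higher and 2986 lower with library totals alone, and 3242 to 3826 with 1 library left out. Library totals moved the median of all genes from −0.02 to −0.19. Calls among the other pathway genes went from 4 to between 2 and 5 with 1 library left out, with 2 without KO replicate 1 and 2 without WT replicate 2. The enzymes' share was 0.0486 percentage points higher in KO, 0.0481 over transcripts listed in all libraries and 0.031 to 0.0663 higher with 1 library left out.

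With 1 library left out the log2 change was −0.14 to 0.61 for Mvk, −0.09 to 0.21 for Mvd and −0.07 to 0.31 for Nsdhl, and that of the Ebp 5′ UTR ratio −0.25 to 0.26. With library totals the log2 change turned sign for Hmgcs1 (−0.06), Lss (−0.06), Mvd (−0.11), Sc4mol (−0.15) and Nsdhl (−0.05). Without KO replicate 1 it did so for Mvk (from 0.28 to −0.14), Mvd (−0.09) and Nsdhl (−0.07). Sc4mol turned sign without WT replicate 1 (−0.01) and Mvd without WT replicate 2 (−0.05). The Ebp 5′ UTR ratio turned to 0.10 with library totals, 0.04 with a count minimum of 5, 0.00 with the replicate block, 0.19 without KO replicate 2 and 0.26 without WT replicate 1.

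Calls of UTR ratios were unstable. For the 5′ UTR, edgeR called 27 genes, 12 to 54 with 1 library left out (12 without KO replicate 1, 54 without WT replicate 1) and 0 with the replicate block, where 255 had an unadjusted p under 0.05; no other tool was run. For the 3′ UTR it called 57, 15 with library totals, 5 to 35 with 1 library left out (7 and 35 without KO replicate 1 and 2, 11 and 5 without WT replicate 1 and 2) and 0 with the replicate block, where 59 had an unadjusted p under 0.05. The cause was not tested. A library left alone in its group was taken to vary like the other group. Of the 9 enzymes, Sqle, Cyp51 and Ebp had enough 5′ UTR footprints for the ratio test, and none had enough in the 3′ UTR.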
